A study of Mus musculus with 12 samples.

Results

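The genes described here are 32 genes of the cardiac endothelium, taken by name from the 55401 gene identifiers counted in 12 mouse heart libraries. All 32 names matched a gene of the GENCODE M21 annotation, 30 had at least 1 count, and 28 passed the filter on low counts that left 6596 genes for testing. The libraries came from adult hearts of 2 genotypes, wild type (WT) and Rpl3l-/- (KO), and from 2 RNA fractions, with 3 biological replicates in each of the 4 groups. Input was total RNA from heart homogenate. IP was RNA recovered with HA-tagged ribosomes on an anti-HA antibody (TRAP, translating ribosome affinity purification) from hearts given cycloheximide, which halts elongating ribosomes, at excision. Both fractions were poly(A)-selected and sequenced as direct cDNA on a Nanopore MinION. Rpl3l encodes a striated-muscle paralog of a protein of the large ribosomal subunit. Which cells carried the HA tag, the strain, the sex, whether Input hearts received cycloheximide and whether an Input and an IP library came from the same heart are not given in the sources used here.

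Endothelial cells line the blood vessels and the chambers of the heart, and capillary endothelium wraps nearly every cardiomyocyte. They are held together by junction proteins such as VE-cadherin and claudin-5, read growth signals through the VEGF and angiopoietin receptors, and take their identity from transcription factors of the ETS and SOX families. In heart muscle they carry fatty acids and water from the blood to the myocyte and release factors that control clotting and vascular tone.

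Summed, the endothelial genes stood at similar levels in the ribosome pulldown and in total RNA, with 2471 ± 11.4 against 2364 ± 30.8 counts in a library of 1000000 for WT (SD, n = 3), but single genes moved in opposite directions. A sum of 8 defining markers was lower in IP than in Input in both genotypes, but Egfl7 alone fell by more than that sum. In WT hearts 5 of the 28 tested genes were higher in IP than in Input and 3 were lower, 28.6% of them beside 14.0% of all genes tested, and in KO hearts 4 were higher and 5 lower, 32.1% beside 16.4%. The WT count ranged from 4 to 6 when single libraries were left out, and the share of all genes called in those settings is not given here. Podxl, Ptprb, Flt1 and Vwf rose and Egfl7, Esam and Rgcc fell in IP in both genotypes, although the WT call of Vwf was lost in most of the alternatives run. None of the 28 passed the test between KO and WT in either fraction.

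The sequences around the start codon of the 10 genes that passed a test are shown first, because ribosome recovery is the readout and these bases are where a ribosome begins translation. On GRCm38, Egfl7 lies at chr2:26580014-26593120 on the plus strand, Esam at chr9:37528078-37538319 (plus), Rgcc at chr14:79288756-79301645 (minus), S1pr1 at chr3:115710433-115715072 (minus) and Cdh5 at chr8:104101625-104144511 (plus). Podxl lies at chr6:31519488-31563981 (minus), Flt1 at chr5:147561604-147726011 (minus), Ptprb at chr10:116275523-116389535 (plus), Vwf at chr6:125546774-125686679 (plus) and Tek at chr4:94739289-94874976 (plus). Each line holds the last 10 bases of the 5′ UTR, the ATG and the next 7 coding bases of 1 GENCODE M21 transcript, 5′ to 3′, with the ATG, the third base before it and the base right after it in capitals. The first 5 genes were lower in IP in at least 1 genotype, and the last 5 were higher.
Egfl7: ccacttaCagATGCagacca
Esam: aaggaggGccATGAttcttc
Rgcc: caacttcTccATGAagccgc
S1pr1: attagcaGctATGGtgtcca
Cdh5: tccacgaAggATGCagaggc
Podxl: gagcacaAccATGCctccca
Flt1: cttgctcAccATGGtcagct
Ptprb: tcccagcGagATGCtgaggc
Vwf: tatgggcAagATGAaccctt
Tek: ctggggaAgtATGGactctt
A purine (A or G) in the third place before the ATG is the best-known feature of an efficient vertebrate start site. It was present in 23 of the 27 tested endothelial genes with a usable transcript (85.2%) and in 88.4% of the 6386 tested genes. All 5 genes higher in IP held it, as did Esam, S1pr1 and Cdh5, whereas Egfl7 and Rgcc did not. Plvap and Tcf15, which were not called, also lacked it. Their log2 fold changes of IP over Input were 0.58 and 1.03 in WT and 2.01 and -0.04 in KO. A G right after the ATG was found in 12 of the 27 (44.4%) against 52.8% of the tested genes. These counts describe the letters only.

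Library depth ran from 169359 to 710868 counts, with all 6 Input libraries at or below 443177, and KO Input replicate 3 was the shallowest. The 32 genes together received 499 to 2069 counts per library. Globin mRNA took 1.70% to 17.3% of counts and was highest in WT IP replicate 2 and WT Input replicate 3. Rpl3l, the deleted gene, had 83 to 182 counts in every WT library, 7 to 18 in KO Input and 1 to 5 in KO IP. Values are given as CPM, a gene's counts scaled to a library of 1000000 counts, after TMM scaling, which corrects for differences in library composition, and 3 counts were worth from 4.22 to 17.7 CPM of the library total. The 8 defining endothelial markers (Pecam1, Cdh5, Kdr, Flt1, Tie1, Tek, Egfl7 and Emcn) were all detected in every library, which shows endothelial RNA in each but does not bear on the labels of genotype or fraction.

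**Figure D1:**
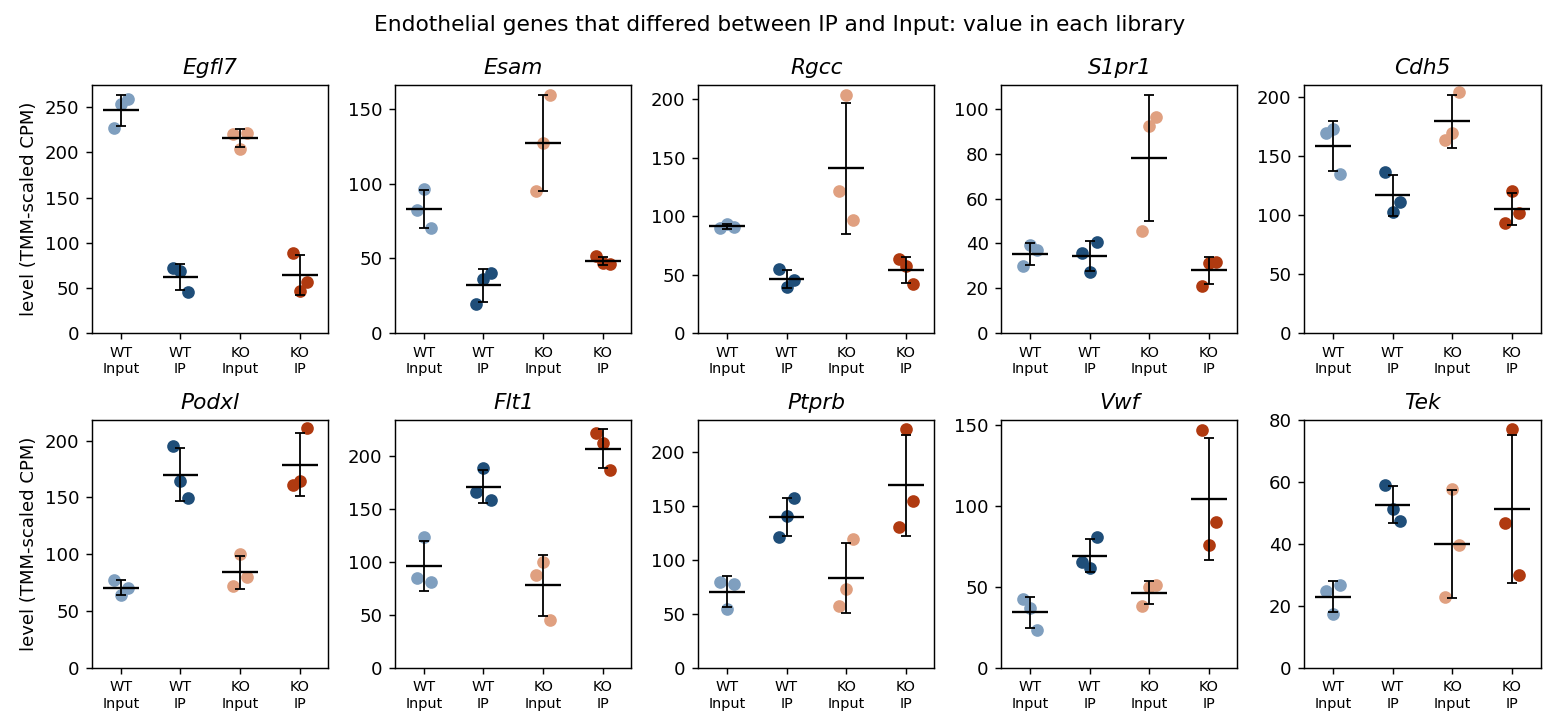
CPM after TMM scaling (vertical axis, linear from 0) of the 10 endothelial genes called in IP against Input, with 1 panel per gene; points are the 3 libraries of each group, and bars are the group mean and SD. All IP libraries of Egfl7, Esam and Rgcc lie below all Input libraries, and all IP libraries of Podxl, Ptprb, Flt1 and Vwf lie above.

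Summed over the 32 genes, the level was 2368, 2392 and 2331 CPM in WT Input and 2484, 2465 and 2463 CPM in WT IP. KO Input held 2407, 2808 and 2836 CPM and KO IP 2560, 2707 and 2395 CPM. The WT groups did not overlap but lay within a narrow band, and the KO fractions overlapped. The 8 defining markers alone summed to between 856 and 915 CPM in WT Input, 757 and 780 in WT IP, 880 and 983 in KO Input, and 741 and 863 in KO IP. In both genotypes the marker sum of every IP library was below that of every Input library. Of these markers, Egfl7 averaged 246 CPM in WT Input and 62.3 in WT IP, and 216 in KO Input and 64.1 in KO IP. The mean sum went from 878 to 771 CPM in WT and from 921 to 818 in KO, a smaller fall than that of Egfl7 alone. The lower sum therefore does not describe the markers as a group. Of their log2 fold changes, 4 were positive and 4 negative in each genotype, with medians of 0.14 in WT and -0.01 in KO. In hearts measured in bulk, fewer endothelial cells and less of a transcript per cell cannot be told apart. Cardiomyocyte markers, by comparison, summed to 89877 to 111319 CPM over the 12 libraries. In IP against Input, 7 of 19 tested were called in WT (36.8%, 3 higher and 4 lower) and 6 of 19 in KO (31.6%, 3 higher and 3 lower). Of all genes 14.0% and 16.4% were called, so a share above that was not particular to the endothelial genes.

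The comparison of IP with Input asks which transcripts were held by tagged ribosomes more or less than their share of total RNA. In WT hearts 8 of 28 endothelial genes (28.6%) passed edgeR's quasi-likelihood test at an adjusted p of 0.05, beside 14.0% of all genes tested (5.37% higher and 8.67% lower). Their median log2 fold change was 0.16, against 0.02 for all genes, with 16 positive and 12 negative values. In KO hearts 9 of 28 (32.1%) passed, beside 16.4% of all genes (6.64% higher and 9.78% lower), and the median was -0.05, against 0.01 for all genes, with 13 positive and 15 negative. Libraries of the fractions did not overlap for 9 higher and 4 lower genes in WT (16.4% and 18.2% of all genes) and for 7 higher and 8 lower genes in KO (15.2% and 15.6%). The WT and KO comparisons share no library, and 21 of the 28 ratios had the same sign in both. Their Pearson correlation over the 28 genes was 0.75, against 0.66 over all tested genes; the points share the protocol, the scaling and each gene's length. Over all genes the same sign was found for 73.6%. Of the 10 genes called in either genotype, 7 were called in both, and over all genes 526 of 1483 (35.5%) were. The WT count was 4 on leaving out WT IP replicate 2 or any 1 of the WT Input libraries and 5 on leaving out WT IP replicate 3, and thinning all libraries to the smallest total gave 4 calls in WT and 7 in KO. These counts are given without the share of all genes called under the same setting.

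**Figure D2:**
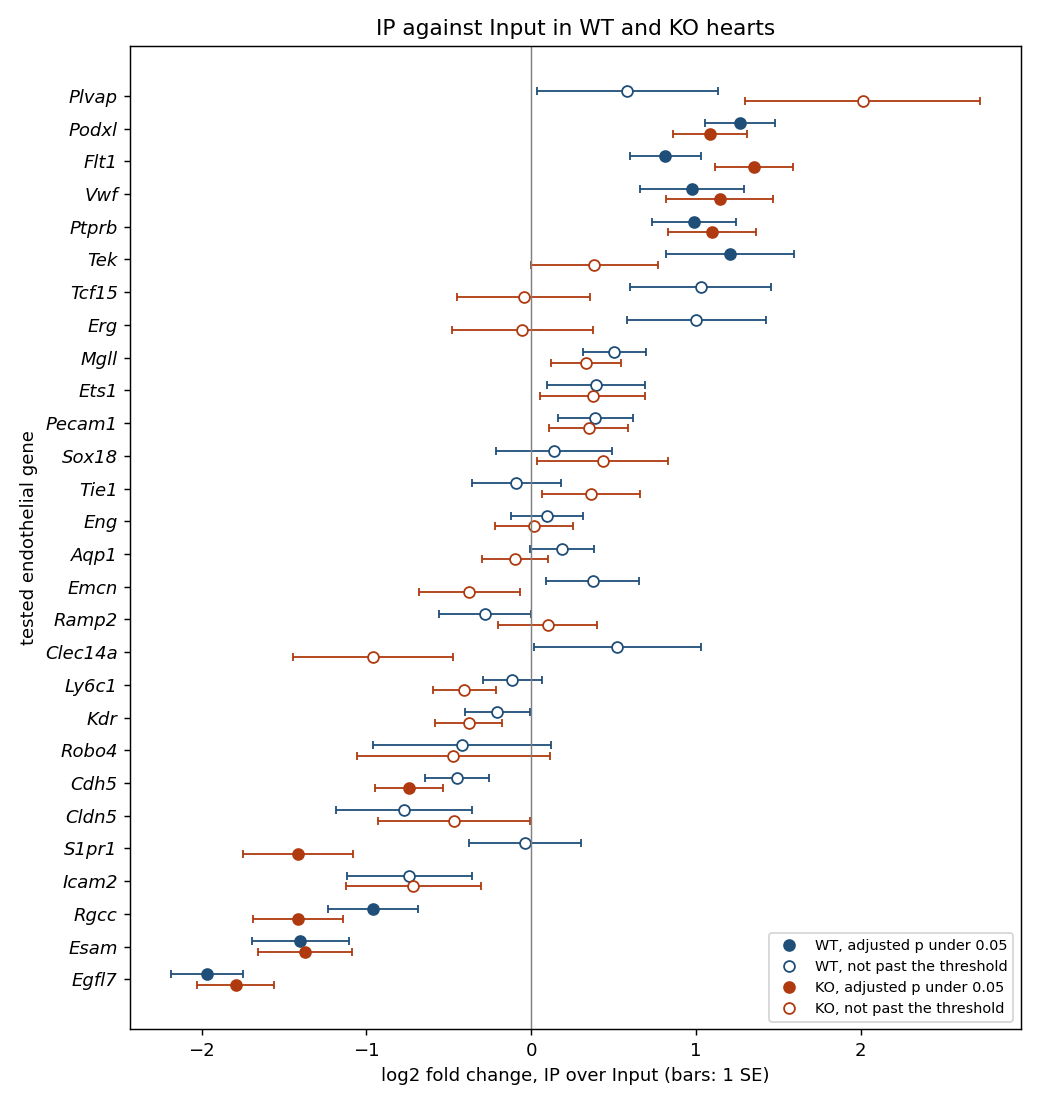
Log2 fold change of IP over Input (horizontal axis) for each tested endothelial gene in WT and in KO hearts; error bars are 1 edgeR standard error and filled points passed the test. Egfl7, Esam and Rgcc lie left of 0 and Podxl, Flt1, Ptprb and Vwf right of 0 in both genotypes.

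Among junction and surface proteins, Podxl and Esam moved in opposite directions. Podxl encodes podocalyxin, a heavily glycosylated sialomucin of the luminal surface. Podxl stood at 77.3, 64.1 and 70.5 CPM in WT Input, 195, 164 and 150 in WT IP, 72.4, 100.1 and 79.6 in KO Input, and 161, 165 and 211 in KO IP. All 6 IP libraries were above all 6 Input libraries. The log2 fold change of IP over Input was 1.27 ± 0.21 (SE, n = 3 per group; adjusted p = 0.000145) in WT and 1.08 ± 0.22 (adjusted p = 0.00135) in KO, and Podxl passed in both genotypes under every alternative run. Esam encodes an immunoglobulin-type adhesion molecule of endothelial tight junctions. Its level was 82.3, 96.2 and 70.5 CPM in WT Input against 19.2, 36.0 and 40.5 in WT IP, and 95.2, 127 and 159 in KO Input against 51.3, 47.1 and 46.5 in KO IP. Every IP library lay below every Input library. Esam fell by 1.40 ± 0.30 on the log2 scale in WT (adjusted p = 0.00193) and by 1.37 ± 0.29 in KO (adjusted p = 0.00153), and the WT call did not hold when libraries were thinned to the smallest total (adjusted p = 0.0673).

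Cdh5 encodes VE-cadherin, the adhesion protein of endothelial adherens junctions. It gave 164, 169 and 205 CPM in KO Input and 93.3, 120 and 101 in KO IP, and 169, 173 and 134 in WT Input and 136, 103 and 111 in WT IP. The KO fractions did not overlap, and in WT the highest IP library was just above the lowest Input library. Cdh5 fell by 0.74 ± 0.21 in KO IP (log2, adjusted p = 0.0140). This call held in 13 of the 18 alternatives run. Among those that lost it were leaving out KO IP replicate 3 or KO Input replicate 3 (adjusted p = 0.0583 each), library totals (0.0864) and no count filter (0.0956). The WT value of Cdh5 was -0.45 ± 0.19 (adjusted p = 0.124). The other junction and surface genes did not pass in either genotype. Cldn5, the tight-junction claudin of endothelium, was at -0.77 in WT and -0.47 in KO, and Icam2, an adhesion molecule for leukocytes, at -0.74 and -0.72. Pecam1, the platelet and endothelial adhesion molecule CD31, was at 0.39 and 0.35, and Emcn, the sialomucin endomucin of capillaries and veins, at 0.37 and -0.37. Ly6c1, which is shared by capillary endothelium and some leukocytes and has near-identical family members, was at -0.11 and -0.41. Robo4 and Clec14a, both surface receptors of angiogenic endothelium, had 92 and 104 counts over all libraries, with values of -0.42 and 0.52 in WT and -0.47 and -0.96 in KO. In all, 1 of 10 tested surface genes was higher and 1 lower in WT, and 1 higher and 2 lower in KO; with 10 genes, 2 or 3 calls are near the share of all genes called (14.0% and 16.4%).

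Among the 8 receptors, those of the VEGF and angiopoietin systems accounted for the higher calls. Flt1 encodes VEGF receptor 1, which binds VEGF tightly and limits its action on VEGF receptor 2. Flt1 was at 84.7, 123 and 80.6 CPM in WT Input, 166, 188 and 158 in WT IP, 87.6, 100.1 and 45.5 in KO Input, and 222, 212 and 186 in KO IP. The fractions did not overlap in either genotype, and the lowest Input library was the shallow KO Input replicate 3. Flt1 rose by 0.81 ± 0.22 in WT (log2, adjusted p = 0.0120) and by 1.35 ± 0.24 in KO (adjusted p = 0.000277). The WT call was lost without WT IP replicate 2, WT Input replicate 1 or WT Input replicate 3 (adjusted p = 0.0599, 0.0876 and 0.0711). Kdr, VEGF receptor 2 and the main signalling receptor for VEGF-A, stood at 147, 133 and 181 CPM in WT Input and 124, 123 and 150 in WT IP. Those fractions overlapped, and Kdr's fold change was -0.21 ± 0.20 in WT and -0.38 ± 0.21 in KO, without passing.

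Tek encodes Tie2, the receptor of the angiopoietins. Its WT levels were 24.9, 17.3 and 26.9 CPM in Input and 59.2, 51.4 and 47.5 in IP, and its KO levels were 22.8, 57.8 and 39.8 in Input and 46.7, 77.2 and 29.9 in IP. The fractions were separate in WT and overlapped in KO. Tek rose by 1.21 ± 0.39 in WT IP (log2, adjusted p = 0.0377), a call lost on leaving out any 1 of the 6 WT libraries (adjusted p from 0.0548 to 0.157), with DESeq2 (0.0733) and with limma-voom. Tek kept this call in 7 of the 17 alternatives that tested it. Its KO value was 0.38 ± 0.39, and the difference between genotypes, -0.82 ± 0.56, did not pass (adjusted p = 0.819). Tie1, the orphan partner of Tie2, was at -0.09 in WT and 0.36 in KO. Ptprb encodes VE-PTP, the phosphatase that restrains Tie2 and VE-cadherin signalling. Ptprb gave 79.8, 54.3 and 77.3 CPM in WT Input, 121, 140 and 157 in WT IP, 57.1, 73.2 and 119 in KO Input, and 131, 221 and 155 in KO IP. Every IP library was above every Input library. The log2 rise was 0.99 ± 0.25 in WT (adjusted p = 0.00941) and 1.10 ± 0.27 in KO (adjusted p = 0.00552). The WT call was lost on leaving out WT Input replicate 2 (0.0783), and the KO call on leaving out KO Input replicate 1 (0.0614).

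S1pr1 encodes the receptor through which sphingosine-1-phosphate tightens the endothelial barrier. It stood at 29.9, 39.5 and 36.9 CPM in WT Input and 35.5, 27.4 and 40.5 in WT IP, but at 45.7, 92.4 and 96.6 in KO Input and 21.0, 31.4 and 31.6 in KO IP. The WT fractions overlapped, whereas in KO every IP library lay below every Input library, and the KO Input libraries were also above the WT ones. S1pr1 fell by 1.42 ± 0.34 in KO IP (log2, adjusted p = 0.00429) under every alternative that tested it, and its WT value was -0.04 ± 0.34 (adjusted p = 0.960). The KO comparison of fractions and the Input comparison of genotypes share the 3 KO Input libraries. The difference between genotypes in the ratio was -1.38 ± 0.48, at an unadjusted p of 0.00777 and an adjusted p of 0.530, so it did not pass over all genes. Eng, the TGF-β co-receptor endoglin, was at 0.09 in WT and 0.02 in KO, and Ramp2, the partner of the adrenomedullin receptor, at -0.28 and 0.10. An exon of Ramp2 overlaps Vps25 on the same strand in the annotation, so reads of these genes may not be fully separable. Of the 8 receptors, 3 were higher and 0 lower in WT IP, and 2 were higher and 1 lower in KO IP. In WT the same 3 of the 8 receptors (37.5%) were the ones with an unadjusted p under 0.05, beside 27.8% of all genes. The share called was 37.5% in each genotype, beside 14.0% of all genes in WT and 16.4% in KO. DESeq2 and limma-voom each called 2 of the 8 in WT and 3 in KO.

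The pair of secreted proteins moved in opposite directions in both genotypes. Egfl7 encodes a small secreted protein with EGF-like domains that is deposited around growing vessels. Egfl7 stood at 227, 254 and 259 CPM in WT Input and 72.5, 68.5 and 45.8 in WT IP, and at 221, 204 and 222 in KO Input and 88.7, 47.1 and 56.5 in KO IP. All 6 IP libraries lay far below all 6 Input libraries. Egfl7 fell by 1.97 ± 0.22 in WT (log2, adjusted p = 4.07e-07), a 3.92-fold lower level, and by 1.79 ± 0.23 in KO (adjusted p = 5.25e-06), 3.47-fold lower. It had the smallest p of the 28 genes in both genotypes, and was called under every alternative run in both. An exon of Egfl7 overlaps Agpat2 on the opposite strand and the minor gene model Gm20532, which had 314 and 11 counts in all, against 644 for Egfl7. Vwf encodes von Willebrand factor, the large clotting protein that endothelium stores and releases. Vwf was at 42.4, 37.0 and 23.5 CPM in WT Input, 65.1, 61.7 and 81.0 in WT IP, 38.1, 50.1 and 51.1 in KO Input, and 147, 75.9 and 89.8 in KO IP. The fractions did not overlap, and KO IP replicate 1 was the highest library. Vwf rose by 0.98 ± 0.32 in WT (log2, adjusted p = 0.0393) and by 1.14 ± 0.32 in KO (adjusted p = 0.0155). The WT call was lost on leaving out any 1 of the 6 WT libraries (0.0557 to 0.158) and with DESeq2 (0.0741), limma-voom (0.0579) or thinned libraries (0.0951), and the KO call without KO IP replicate 1 (0.0746) or KO Input replicate 1 (0.0882).

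Proteins of caveolae, fenestrae and water transport gave no call. Cav1 and Cavin2, which build caveolae, were listed at 0 counts in all 12 libraries, as was Cav2. Actc1, cardiac actin and a major transcript of heart muscle, was also at 0 throughout, so these zeros are not read as a lack of expression. Aqp1, the water channel of capillary endothelium and red cells, had the most counts of the members, 1906 in all, and its fold changes of 0.19 in WT and -0.10 in KO did not pass. Plvap, which forms the diaphragms of fenestrae and caveolae, gave 2, 2 and 0 counts in KO Input and 12, 16 and 14 in KO IP. The KO fractions did not overlap, and with so few counts the fitted 2.01 ± 0.71 reached an adjusted p of only 0.0543. In WT its counts were 4, 4 and 6 in Input and 8, 11 and 16 in IP.

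The transcription factors were called in neither genotype (0 of 4 tested; 2 had an unadjusted p under 0.05 in WT and 0 in KO, beside 27.8% and 29.4% of all genes; DESeq2 and limma-voom also called 0). Tcf15, a partner of Meox2 in the program of cardiac capillaries, was at 17.4, 14.8 and 20.2 CPM in WT Input and 37.0, 42.8 and 26.4 in WT IP, and at 19.0, 46.2 and 56.8 in KO Input and 51.3, 24.9 and 41.6 in KO IP. All WT IP libraries lay above all WT Input libraries, and the KO fractions overlapped. Its WT value was 1.03 ± 0.43 (adjusted p = 0.111) and its KO value -0.04 ± 0.40. Erg, an ETS factor that maintains endothelial identity, was at 1.00 ± 0.42 in WT (adjusted p = 0.117), with separate fractions, and at -0.05 ± 0.43 in KO. Ets1 was at 0.39 and 0.37, and Sox18 at 0.14 and 0.44. Sox17, a factor of arterial endothelium, had 51 counts over 12 libraries and was not tested, nor was the surface sialomucin Cd34, with 47 counts in 9 libraries.

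Of the intracellular regulators, Rgcc, a cell-cycle regulator, gave 89.7, 93.7 and 90.7 CPM in WT Input, 54.8, 39.4 and 45.8 in WT IP, 122, 204 and 96.6 in KO Input, and 63.0, 57.6 and 41.6 in KO IP. All IP libraries were below all Input libraries. Rgcc fell by 0.96 ± 0.28 in WT (log2, adjusted p = 0.0207) and by 1.42 ± 0.27 in KO (adjusted p = 0.000743). The WT call was lost without WT IP replicate 2 or 3 or without any 1 of the 3 WT Input libraries (0.0516 to 0.0821), and both calls were lost in thinned libraries (0.0606 in WT and 0.0673 in KO). Mgll, the lipase that splits monoacylglycerols and is also active in fat cells, stood at 182, 136 and 138 CPM in WT Input and 187, 260 and 202 in WT IP. The WT fractions did not overlap, but Mgll's rise of 0.50 ± 0.19 missed the threshold (adjusted p = 0.0786), and its KO value was 0.33 ± 0.21.

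Transcript length moved with the ratio of IP to Input. Length was taken from the longest annotated transcript. Over the 28 genes the Pearson correlation of the log2 fold change with log10 length was 0.53 in WT and 0.46 in KO (Spearman 0.49 and 0.48), and over the 6591 genes with a length it was 0.23 and 0.31. The points share their libraries, and genes are not independent replicates. Flt1, Ptprb and Vwf, the 3 members over 6000 bases (6895, 11911 and 8834), had a median log2 ratio of 0.98 in WT and 1.14 in KO, beside 0.23 and 0.36 for all 999 genes of that length. Egfl7, Esam and Rgcc are short, at 1391, 1865 and 918 bases, but other short members, none of them called, had values near or above 0, such as Tcf15 (980 bases, 1.03 in WT and -0.04 in KO), Sox18 (1620 bases, 0.14 and 0.44) and Plvap (1987 bases, 0.58 and 2.01). Under 1000 bases the 3 members had medians of -0.11 and -0.41, beside -0.49 and -0.56 for all 535 genes. The 7 members between 1000 and 2000 bases had medians of -0.74 and -0.47, beside -0.20 and -0.21 for 1339 genes.

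When the trend of fold change with length was removed from all genes, 5 members passed in WT instead of 8, and 8 in KO instead of 9. The share of all genes called in that setting is not given here. In WT, Podxl (1.02, adjusted p = 0.00176) and Tcf15 (1.50, adjusted p = 0.0202) were then higher, and Egfl7 (-1.72), Esam (-1.36) and Cdh5 (-0.58) were lower. Tek, at 1.01, Ptprb (0.65), Vwf (0.64), Flt1 (0.51) and Rgcc (-0.45) kept their sign but no longer passed (adjusted p from 0.0666 to 0.302). In KO, Podxl (0.81) and Flt1 (0.95) were higher, and Egfl7 (-1.55), S1pr1 (-1.46), Esam (-1.30), Rgcc (-0.87), Cdh5 (-0.86) and Kdr (-0.70) were lower. Ptprb (0.58) and Vwf (0.71) lost their calls in KO (adjusted p = 0.124 and 0.189). Thus the direction of Podxl, Egfl7 and Esam was called with and without the length trend in both genotypes. The removal was partial for the members. Their Pearson correlation with log10 length was still 0.23 in WT and 0.16 in KO afterwards, beside -0.05 and -0.01 over all genes.

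**Figure D3:**
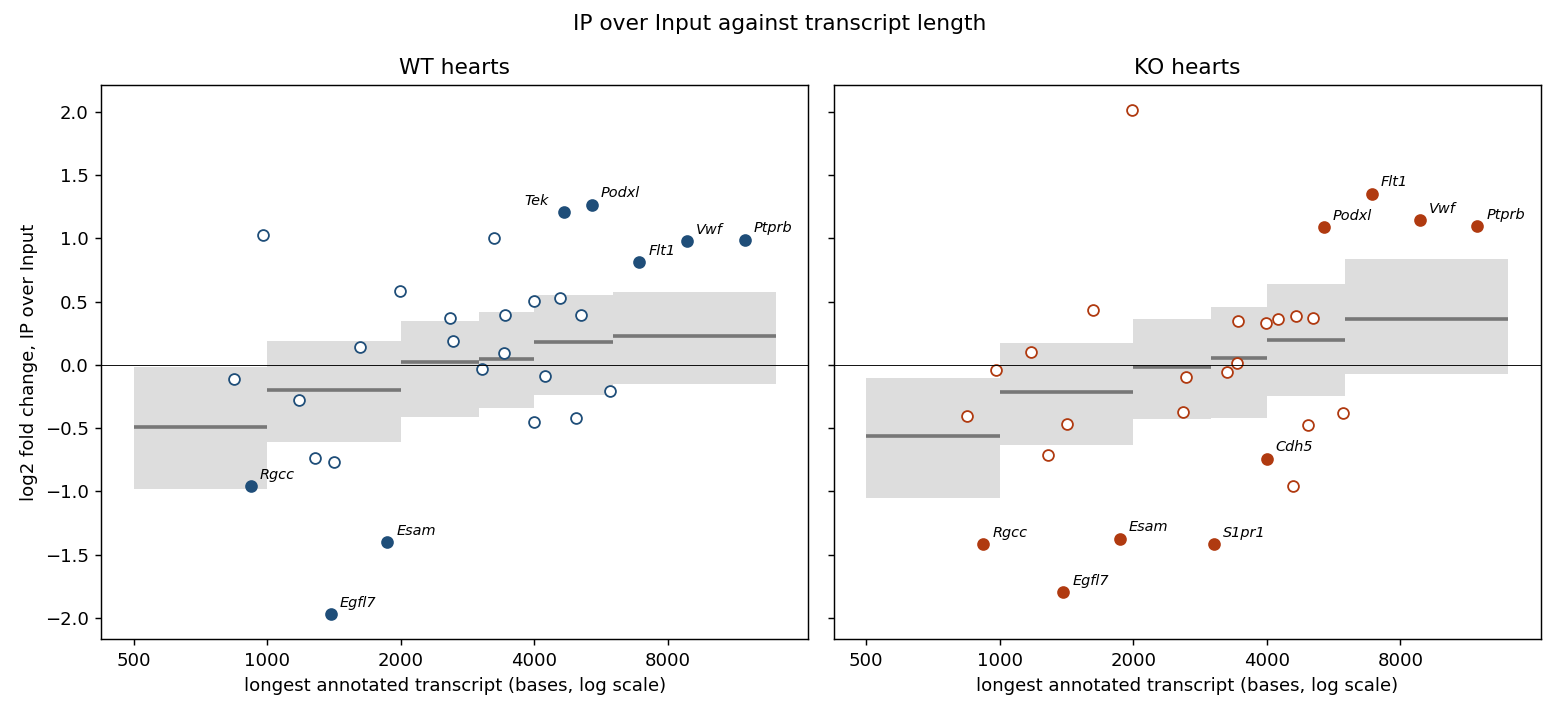
Log2 fold change of IP over Input (vertical axis) against the longest transcript length in bases (horizontal axis, log scale) for the 28 tested endothelial genes in WT and KO hearts; the line and band are the median and quartiles of all tested genes in length bins. The 3 genes over 6000 bases lie above 0, and Egfl7 and Esam lie below the quartile band of genes of their length.

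The markers of other cells in the heart also differed between fractions, and their part in the endothelial values was not tested. Of 4 tested adipocyte markers, 2 were lower in IP in both genotypes, Cfd and Ucp1, though limma-voom called 1 in each genotype and DESeq2 1 in KO. The share of all genes called, as a background for these small lists, was 14.0% in WT and 16.4% in KO. The 11 adipocyte markers summed to 441 to 1108 CPM in WT Input and 268 to 336 in WT IP, and to 455 to 746 in KO Input and 245 to 342 in KO IP, with Lipe at 0 in every library. Of 13 tested fibroblast markers, 1 was higher and 0 lower in WT IP, and 0 higher and 2 lower in KO IP (0 called with DESeq2). None of 10 smooth muscle and pericyte markers or 12 macrophage markers passed in either genotype with edgeR, DESeq2 or limma-voom. By edgeR, 2 smooth muscle and pericyte markers in WT and 2 macrophage markers in each genotype had an unadjusted p under 0.05. Of all genes, 27.8% in WT and 29.4% in KO did. Erythroid markers gave 3 higher of 10 in WT (1 with DESeq2 or limma-voom), and their sum ranged from 16497 to 204017 CPM. Among endothelial subtypes, the 6 lymphatic markers summed to 101 to 122 CPM in WT Input and 159 to 176 in WT IP, and to 77.0 to 153 in KO Input and 146 to 170 in KO IP, where the fractions overlapped. Of 3 tested, Prox1 was called higher in WT and Ccl21a in KO, the latter not by limma-voom. Prox1 alone averaged 51.3 CPM in WT Input and 94.7 in WT IP, out of mean sums of 114 and 167. In KO 1 of 3 endocardial markers (Cdh11) was lower and 1 of 4 arterial markers (Eln) higher, and neither was called by DESeq2 or limma-voom. Which cells of the heart held these marker transcripts was not tested. The venous markers gave 0 of 4 in both genotypes with the 3 tools, with 2 at an unadjusted p under 0.05 in KO by edgeR, beside 29.4% of all genes.

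Other genes of endothelial signalling and structure were read from 4 lists holding 103 genes, of which 75 were tested. In WT 7 were higher and 3 lower in IP, with a median of 0.23, and in KO 9 were higher and 10 lower, with a median of -0.01. The WT share, 13.3%, was near the 14.0% of all genes, and the KO share was 25.3% beside 16.4%. These are edgeR calls, as are the single genes named next. DESeq2 called 9 of the 75 in WT and 14 in KO, and limma-voom called 13 and 18. The share of all genes called by those 2 tools is not given here. In the VEGF and angiopoietin list, Vegfa, the ligand of Flt1 and Kdr, which cardiomyocytes make, was lower in IP (-1.09 in WT and -1.22 in KO, adjusted p = 0.000372 and 0.000167). The signalling adaptors Pik3r1 (1.07) and Grb2 (0.74) were higher in WT, and in KO the phosphatase Ptpn11 (0.70) was higher and Angpt1 (-1.57), the agonist of Tie2, lower. In the Notch and BMP list, the BMP target Id3 was lower in both genotypes (-1.06 and -0.93) and the receptor Bmpr2 higher in both (1.29 and 0.92), and Id1 was lower in KO (-1.84). Of the 13 tested genes on the list of further transcription factors, Epas1, which encodes HIF-2α, was the one called, and it was higher in both genotypes (0.62 and 0.77). In the junction and surface list, Cgnl1 (1.63), Col4a2 (0.83) and Ece1 (0.93) had the smallest p in WT, and Fabp4 (-1.06), Rbp7 (-1.86) and Col4a2 (1.33) in KO.

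The comparison of KO with WT asks how loss of Rpl3l altered endothelial transcripts in total RNA and on ribosomes. In Input, 0 of 28 endothelial genes passed edgeR's test, and DESeq2 and limma-voom also called 0, beside 0.182% of all genes. At an unadjusted p under 0.05 there were 4, all higher in KO, beside 7.11% of all genes (3.58% higher). The median log2 fold change was 0.17, against -0.01 for all genes, with 19 positive and 9 negative values. KO and WT Input libraries did not overlap for 3 genes higher in KO (Clec14a, S1pr1 and Rgcc; 6.17% of all genes) and 2 lower (Egfl7 and Plvap; 6.20%). In IP, 0 of 28 passed with each of the 3 tools, beside 0.0910% of all genes, and 1, Vwf, had an unadjusted p under 0.05, beside 5.20%. The IP median was 0.08, against 0.00 for all genes, with 17 positive and 11 negative values. Without overlap were 1 gene higher in KO (Esam; 5.40% of all genes) and 1 lower (Mgll; 5.44%).

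**Figure D4:**
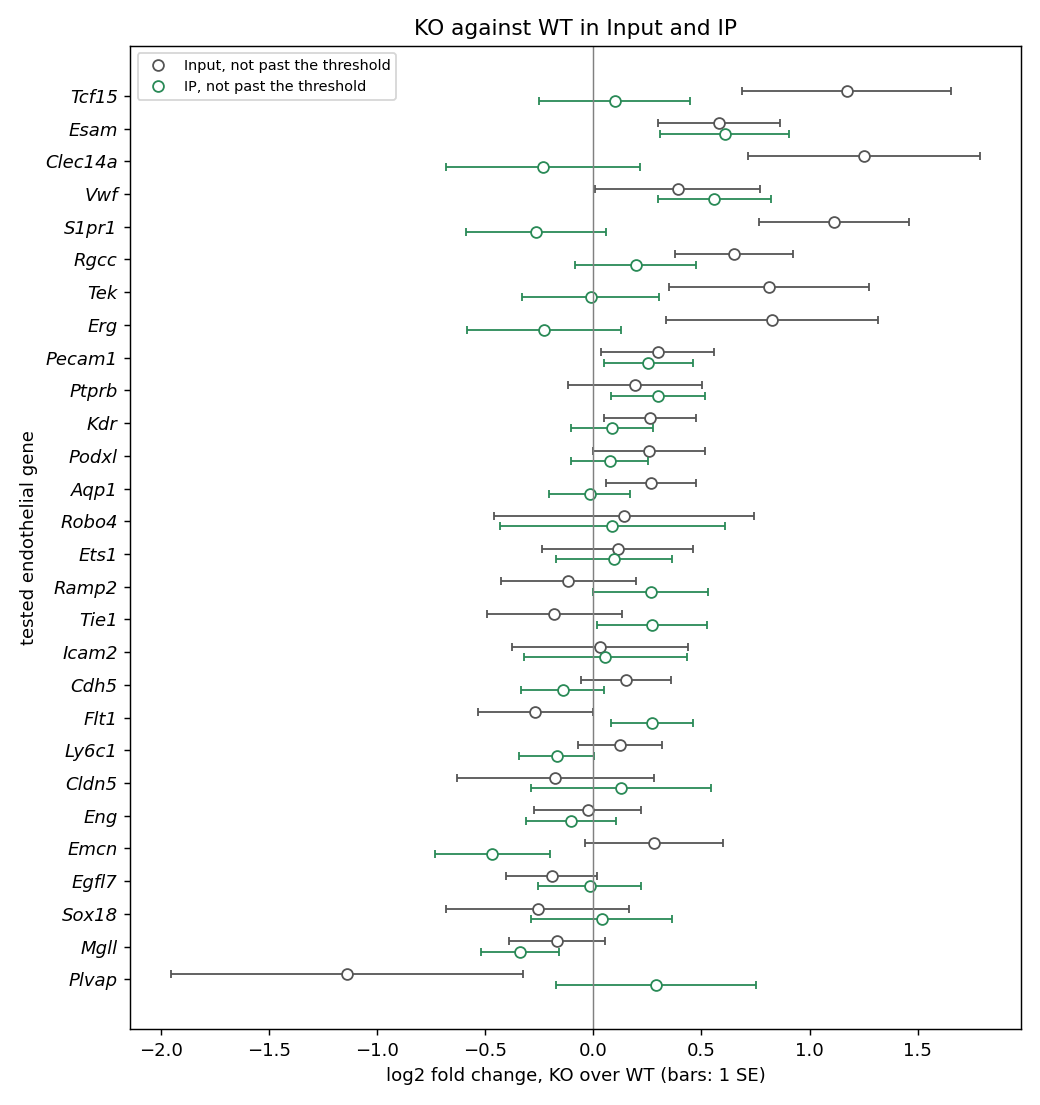
Log2 fold change of KO over WT (horizontal axis) for each tested endothelial gene in Input and in IP; error bars are 1 edgeR standard error. No point passed the test, and S1pr1, Tcf15 and Clec14a lie farthest right in Input, at 1.11, 1.17 and 1.25.

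S1pr1 had the smallest p in Input, with 29.9, 39.5 and 36.9 CPM in WT and 45.7, 92.4 and 96.6 in KO as given above. Its fold change was 1.11 ± 0.35 (95% interval 0.43 to 1.80; adjusted p = 0.414). Clec14a gave 6, 6 and 3 counts in WT Input and 12, 7 and 4 in the less deep KO Input libraries, or means of 13.3 and 31.8 CPM. On the CPM scale these groups were separate, and the value was 1.25 ± 0.54 (adjusted p = 0.650). Tcf15 was at 1.17 ± 0.48 (adjusted p = 0.626), with KO Input replicate 1, at 19.0 CPM, inside the WT range. Rgcc was at 0.65 ± 0.27 (adjusted p = 0.639). On the lower side the genes named by size were Flt1 (-0.27 ± 0.27), Sox18 (-0.26 ± 0.42) and Egfl7 (-0.19 ± 0.21), each about the size of its SE or smaller. The 95% intervals of the central markers were -0.22 to 0.81 for Pecam1, -0.25 to 0.56 for Cdh5 and -0.16 to 0.68 for Kdr.

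In IP the values with the largest size were Esam (0.61 ± 0.30), Vwf (0.56 ± 0.26) and Ptprb (0.30 ± 0.22) on the higher side and Emcn (-0.47 ± 0.27), Mgll (-0.34 ± 0.18) and S1pr1 (-0.27 ± 0.32) on the lower, with adjusted p from 0.943 to 0.985. Emcn stood at 56.3, 83.9 and 70.4 CPM in WT IP and 44.3, 49.7 and 56.5 in KO IP, and the groups overlapped by a single pair of libraries. The intervals were -0.15 to 0.66 for Pecam1, -0.52 to 0.23 for Cdh5 and -0.28 to 0.46 for Kdr. Of the 75 tested pathway genes 0 passed in Input with each of the 3 tools. By edgeR 10 had an unadjusted p under 0.05 there, beside 7.11% of all genes. In IP 1 passed, beside 0.0910% of all genes. It was Rbp7, a retinol-binding protein of capillary endothelium, which fell by 1.77 ± 0.30 in KO (log2, adjusted p = 0.0104). The pathway lists were chosen with earlier results of these data known, so 1 call among the 75 is not read as an excess. Immediate early genes, which respond within minutes to stress, moved with the Input genotypes, with 5 of 11 tested higher in KO and a median of 1.77. Of all genes 0.182% were called in that comparison. The sum of all 15 such genes was 496, 446 and 618 CPM in WT Input and 1005, 1548 and 2222 in KO Input, and their part in the endothelial Input values was not tested.

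The last comparison asked whether the ratio of IP to Input differed between genotypes. Of the 28 genes 0 passed with edgeR, DESeq2 or limma-voom, beside 0.0910% of all genes, and 2 had an unadjusted p under 0.05, both lower in KO, beside 7.02%. The median was -0.07, against 0.01 for all genes, with 11 positive and 17 negative values. Besides S1pr1, the largest differences at 20 CPM or more were Clec14a (-1.49 ± 0.70, adjusted p = 0.708) and Tcf15 (-1.07 ± 0.59, 0.756) on the lower side and Flt1 (0.54 ± 0.33, 0.782), Tie1 (0.45 ± 0.40, 0.878) and Ramp2 (0.38 ± 0.41, 0.900) on the higher. For the 3 genes with the firmest ratios the intervals of the difference were -0.45 to 0.81 for Egfl7, -0.71 to 0.76 for Esam and -0.80 to 0.43 for Podxl. Rbp7 was the 1 pathway gene of 75 that passed, with a difference of -2.59 ± 0.45 (adjusted p = 0.0112). Because the lists were chosen with earlier results of these data known, this call is not read as an excess either.

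The RefSeq promoter table (GRCm38.p6) held 25 start sites for 18 of the 32 genes. The 250 bases before each start were searched on both strands for an ETS core (CAGGAAG or CCGGAAG), a SOX core (ACAATGG) and a GATA core (AGATAAG). An ETS core was present in 6 of the 25 windows (24.0%), of Cd34, Egfl7, Emcn, Erg and Robo4, beside 17.0% of 32851 windows in the table. The SOX core was in 0 of 25 beside 3.02%, and the GATA core in 1, of Erg, beside 2.74%. Of the genes called in IP against Input, Egfl7 was the one whose table entry held a searched core, in each of 2 alternative starts, which are printed with the ETS core in capitals. The first window is chr2:26580833-26581082 and the second chr2:26583615-26583864, both on the plus strand, and the matches do not overlap one another.
Egfl7 upstream start: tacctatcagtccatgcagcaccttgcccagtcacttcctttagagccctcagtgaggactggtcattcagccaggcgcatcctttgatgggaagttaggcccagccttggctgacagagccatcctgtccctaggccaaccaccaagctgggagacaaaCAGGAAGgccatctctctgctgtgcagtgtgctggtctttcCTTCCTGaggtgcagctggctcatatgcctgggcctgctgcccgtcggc
Egfl7 downstream start: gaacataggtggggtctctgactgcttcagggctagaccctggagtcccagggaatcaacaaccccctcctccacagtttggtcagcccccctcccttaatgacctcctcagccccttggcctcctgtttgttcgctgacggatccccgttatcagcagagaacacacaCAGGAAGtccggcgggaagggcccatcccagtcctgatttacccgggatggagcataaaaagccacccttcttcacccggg
The first holds the core once on each strand and the second once on the plus strand. A match describes the letters of the window and is not evidence of a bound site.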

How the data were processed

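The deposited files give raw read counts per gene for 12 libraries. Per the submitters' processing notes, minimap2 2.14, DESeq2 1.34.0 and GRCm38 were used; the counting tool, its use of strand and any filter are not given in the sources used here. Genes were matched to GENCODE M21 by Ensembl identifier without version (55141 of 55401). The 37 mitochondrial genes hold 0 counts. Members and lists were chosen with earlier results of these data known.

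Counts were analysed with edgeR 4.0.16 (R 4.3.3): filterByExpr (minimum count 10, minimum total 15), TMM scaling, 1 mean per group over all 12 libraries, the quasi-likelihood test and Benjamini-Hochberg adjustment over 6596 genes at 0.05. The biological coefficient of variation was 18.2%. The SE is the fold change divided by the square root of F. DESeq2 1.42.0 and limma-voom (limma 3.58.1) were alternatives, with other scalings, filters, thinning of reads without replacement to the smallest library, removal of a loess length trend (span 0.5) and left-out libraries.

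Genes described with all library values were those past the threshold in any comparison and, per comparison, up to 3 in each direction with the largest fold change at a mean of at least 20 CPM; pathway genes named were up to 3 per list and comparison with the smallest p. Others named with values were added to account for every member. Start-codon bases came from the principal protein-coding transcript, and promoters from RefSeq. After each group's mean was subtracted from the log CPM of each gene, same-numbered replicates correlated between -0.215 and 0.156 over 18 pairs. The same number gave the highest correlation in 15 of 36 cases. The numbers were not taken to pair libraries. No libraries were identical. With 3 libraries against 3, an exact permutation test cannot go below 0.1.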

Additional observations from a re-analysis of the deposited data

How the results depend on the processing

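Of the recomputed values of called genes, 257 kept their direction and side of the threshold and 46 kept their direction only; calls for Podxl and Egfl7 in both genotypes and for Flt1, Esam and S1pr1 in KO held in every alternative that tested them. Thinning every library to the smallest total gave 4 calls in IP against Input in WT and 7 in KO, and removing the length trend gave 5 in WT. Leaving out 1 library at a time gave 4 to 6 calls in WT and 7 to 9 in KO, and 0 in the genotype comparisons and their difference. Without any 1 of the 3 WT Input libraries or without WT IP replicate 2, 4 were called in WT, and 5 without WT IP replicate 3. With the replicate number as a block there were 8 calls in WT, 9 in KO and 0 elsewhere. Without KO Input 3 and WT Input 3 together there were 6 and 8. All these counts are given without the share of all genes called under the same setting. Tcf15 passed in WT with the length trend removed (1.50). Of the 123 values of members that were not called, 49 changed sign in at least 1 alternative, and of the 17 called values 0 did. Among the genes named by size, Sox18, KO against WT in Input, was 0.29 without WT Input replicate 2 instead of -0.26 (-0.55 to 0.29 over the left-out libraries); the cause was not tested. Under library totals the all-gene median in IP against Input reached 0.15 in KO and 0.11 in WT (log2), and the members' median in KO went from -0.05 to 0.10. Shallow Input libraries limit genes under about 20 CPM, such as Plvap.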
